A study of Mus musculus with 24 samples.

Results

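Hepatic expression of 41 genes of the cell division cycle and of DNA replication was examined in mice with and without the major urinary protein (Mup) gene cluster. The genes were chosen by name, with earlier results of these data known. They run from the cyclins and their kinases through the replication machinery to the proteins of the mitotic spindle. All 41 were found among the 25746 genes listed. Liver RNAseq was available for 24 mice of the C57BL/6N background aged 12 weeks, with 1 library per mouse and 6 mice in each of 4 groups: male wildtype (mWT), male knockout (mKO), female wildtype (fWT) and female knockout (fKO). The KO mice were homozygous for a CRISPR/Cas9 deletion of the whole Mup cluster on chromosome 4, the line goes back to a single male founder, and KO and WT mice came from crosses of heterozygous parents. All mice were fed chow ad libitum and fasted for 4 h at the end of the study. They were then scanned by microCT under isoflurane anaesthesia and killed by cardiac puncture directly after the scan. Since the KO line carries 1 founder's deletion in every cell, any effect of the deletion and of linked DNA cannot be told apart, and the members Ccne2 and Cdc20 lie on the same chromosome 4. The members that the results turn on most are Ccnd1 (chr7:144929931-144939925), Brca1 (chr11:101488764-101551955), E2f1 (chr2:154559407-154569892), Rrm2 (chr12:24708241-24714146) and Cdkn1a (chr17:29090976-29100727), all in build GRCm38.p6.

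The genotype labels were checked first. The summed level of the 22 Mup genes was 17028 to 37393 CPM (counts scaled to the library size) in mWT and 3395 to 5259 CPM in fWT mice, and at most 0.457 CPM in any KO mouse. Total counts per library were 15361901 to 26261394, so that 3 counts, taken as the smallest detectable amount, corresponded to at most 0.195 CPM. The hepatocyte markers (among them albumin, Alb) summed to at least 91065 CPM in every mouse.

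Cells enter a new division cycle when D-type cyclins and then cyclin E activate their cyclin-dependent kinases (CDK), which release E2F transcription factors from the retinoblastoma protein. E2F proteins switch on the genes that license origins and copy DNA, whereas the genes of mitosis are switched on later, through CHR and CCAAT promoter elements bound by the MuvB complex and NF-Y. Adult liver is a quiescent tissue in which most hepatocytes rest outside the cycle and re-enter it after injury or partial hepatectomy. In whole-liver RNA, fewer cycling cells and less of a transcript in each cell cannot be told apart.

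Promoters are shown because the elements named above lie in some of them. RefSeq promoter windows (build GRCm38.p6) were given for 34 of the 41 members in 37 windows, and the 250 bases before the transcription start were searched on both strands for E2F elements (TTTCCCGC, TTTGGCGC, TTTCGCGC or TTTGCCGC), CHR elements (TTTGAA or TTTAAA) and CCAAT boxes (CCAAT). Matches of E2F elements may overlap each other. Capitals mark the matches in the windows of Mcm5 and Mcm6, of the replicative helicase, and of the mitotic genes Mki67 and Top2a, the pairs whose variation between mice is described further on.

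Mcm5 (chr8:75109259-75109508, plus strand): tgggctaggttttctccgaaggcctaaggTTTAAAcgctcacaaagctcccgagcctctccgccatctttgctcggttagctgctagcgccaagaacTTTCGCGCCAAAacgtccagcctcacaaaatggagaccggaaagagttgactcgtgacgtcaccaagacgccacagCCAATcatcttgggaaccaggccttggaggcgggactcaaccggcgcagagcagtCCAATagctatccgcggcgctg
Mcm6 (chr1:128359706-128359955, minus strand): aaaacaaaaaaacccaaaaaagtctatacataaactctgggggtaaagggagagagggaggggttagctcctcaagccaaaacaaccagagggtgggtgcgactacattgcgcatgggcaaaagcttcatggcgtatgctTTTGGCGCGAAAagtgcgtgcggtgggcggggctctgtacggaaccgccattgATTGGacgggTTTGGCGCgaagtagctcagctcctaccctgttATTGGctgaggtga
Mki67 (chr7:135716380-135716629, minus strand): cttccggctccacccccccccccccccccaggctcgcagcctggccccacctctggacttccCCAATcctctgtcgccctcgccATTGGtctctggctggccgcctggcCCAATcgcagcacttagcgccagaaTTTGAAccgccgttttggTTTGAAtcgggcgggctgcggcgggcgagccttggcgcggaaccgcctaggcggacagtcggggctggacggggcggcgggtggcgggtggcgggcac
Top2a (chr11:99024190-99024439, minus strand): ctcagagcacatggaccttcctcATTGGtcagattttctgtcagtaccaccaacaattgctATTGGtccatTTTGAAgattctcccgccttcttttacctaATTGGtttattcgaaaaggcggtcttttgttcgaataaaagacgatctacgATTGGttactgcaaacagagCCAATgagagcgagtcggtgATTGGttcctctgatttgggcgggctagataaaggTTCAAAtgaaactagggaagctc

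Mcm6 holds E2F letters that begin 110, 106 and 47 bases upstream of its start, and Mcm5 holds them at 153 and 149 bases. Mki67 and Top2a hold no E2F match. CHR matches begin at 179 and 23 bases in Top2a, at 116 and 98 bases in Mki67 and at 221 bases in Mcm5, and all 4 windows hold CCAAT boxes. The windows of Cdkn1a, Cdt1, E2f1, Nusap1 and Tyms hold no match of any of these elements. The E2f1 window (chr2:154569427-154569676, minus strand) lies inside the annotated gene, which runs to 154569892. Bases upstream of the E2f1 gene were thus not searched, and the shares below count its window as without a match. The windows of Cdc6 and Mcm7 and a window of Cdkn1a also lie inside their annotated genes. Among the 20 windows of members for G1, licensing and DNA synthesis, 30.0% held an E2F match and 4 of the 20 a CHR match. Among the 17 windows of G2 and mitosis members, 5.88% held an E2F match, in Cdk1, and 64.7% a CHR match. CCAAT boxes were found in 60.0% of the former and 88.2% of the latter windows. Over all 32851 windows of the same length the shares were 1.86% for E2F, 25.2% for CHR and 33.9% for CCAAT. A CHR match together with a CCAAT box was found in 58.8% of the windows of G2 and mitosis members, in 3 of the 20 of the other members and in 8.78% of all windows. These letter matches are a description of the windows, and binding was not measured.

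Most members were weakly expressed. Divided by exon length, the level averaged over the 24 mice ran from 11.6 CPM per kb for Ccnd1 (cyclin D1) and 7.02 CPM per kb for Pcna, the sliding clamp of the DNA polymerases, down to 0.033 CPM per kb for the licensing factor Cdc6. Genes were tested where 6 or more of the libraries reached 0.66 CPM. Of the 32 members past this filter, Ccnd1 and Pcna alone lay above the median of all 12330 genes tested, 3.18 CPM per kb. Rrm2, the regulated subunit of ribonucleotide reductase, followed with 3.0 CPM per kb, Cdk2 with 2.14, Mcm7 with 2.09 and the CDK inhibitor Cdkn1a (p21) with 1.93 CPM per kb. The replication genes Mcm4, Tyms (thymidylate synthase) and Rrm1 stood close together between 1.0 and 1.13 CPM per kb. The genes of mitosis stood below these. The centromeric histone Cenpa was at 0.737 and the mitotic kinase Cdk1 at 0.292 CPM per kb. The proliferation marker Mki67 was at 0.228 and topoisomerase Top2a at 0.160 CPM per kb. Several other members lay in the same range, among them Ccne1 at 0.631, Mcm5 at 0.380 and Brca1 at 0.347 CPM per kb.

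**Figure D1:**
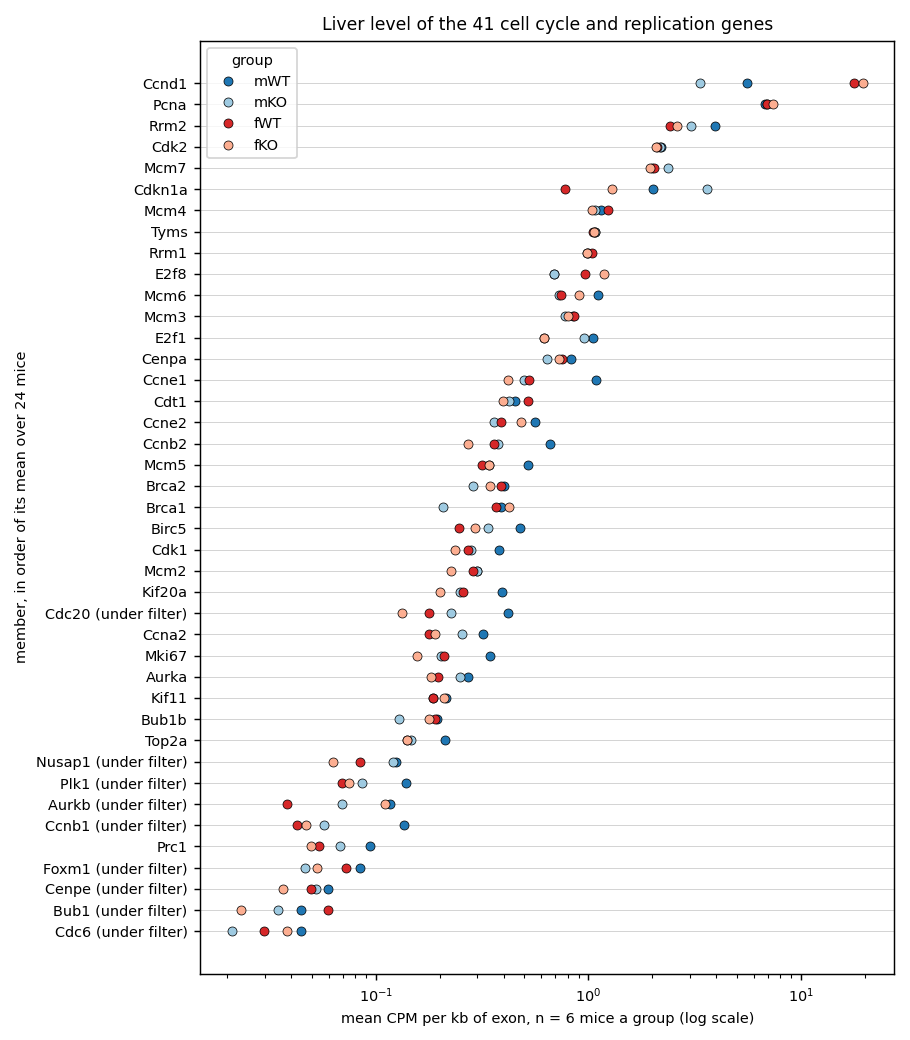
Mean level of each of the 41 members in each group of 6 mice, in CPM per kb of exon on a log scale, with members ordered by their mean over all 24 mice and the 9 members under the filter marked. Ccnd1 stands at the top with 11.6 CPM per kb over all mice and its female groups far to the right of its male groups, and Cdc6 stands at the bottom with 0.033 CPM per kb.

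The 9 members under the filter were Cdc6 and 8 genes of G2 and mitosis, namely Ccnb1, Foxm1, Plk1, Cdc20, Aurkb, Bub1, Cenpe and Nusap1. They were not part of the tests described here, and they are given as raw counts. Ccnb1, the main mitotic cyclin, had 2 to 19 counts per mouse (median 9.0) in mWT, 1 to 14 (median 2.0) in mKO, 1 to 10 (median 3.0) in fWT and 1 to 14 (median 2.0) in fKO mice. Cdc20, the activator of the anaphase-promoting complex, had a median of 11.0 counts in mWT, 8.0 in mKO, 5.5 in fWT and 4.0 in fKO mice, and 1 mKO mouse had 0 counts. The mitotic kinase Plk1 had 0 to 9 counts, the mitotic transcription factor Foxm1 2 to 20 counts and the checkpoint kinase Bub1 0 to 11 counts in any mouse. Cdc6, which loads the helicase at origins, had 0 to 9 counts, Aurkb 0 to 17, the kinetochore motor Cenpe 2 to 21 and the spindle protein Nusap1 1 to 19 counts in any mouse. The 4 groups overlapped in each of these 9 genes. In a fit without a filter, Ccnb1 had the largest difference among them between mKO and mWT (log2 fold change −1.34, SE 0.624, edgeR adjusted p = 0.598) and Aurkb, the chromosomal passenger kinase, between fKO and fWT (1.46, SE 0.616, edgeR adjusted p = 0.839).

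Some members share sequence with other genes, and the counting of strand and of reads with several matches is not given in the sources used here. Exons of Ccnd1 overlap those of LTO1 on the opposite strand over 1100 bp (23.4% of its exon length), Kif20a those of Cdc23 over 1271 bp (29.3%), Ccne2 those of Ints8 over 609 bp (17.4%), Ccna2 those of Exosc9 (12.5%) and Prc1 those of Rccd1 (11.1%). Transcripts at least 95% identical over at least 300 bp exist as pseudogenes for Ccnb1, Cdc20, Cdc6, Mcm7, Pcna, Rrm2 and Tyms, and Tyms also shares a stretch with the expressed genes Reep3, Map3k2 and Wdr59. Counts of these members are uncertain to that extent.

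Adjusted p refers to the edgeR quasi-likelihood test with Benjamini-Hochberg adjustment over all genes tested. The first comparison asked whether loss of the Mup cluster altered the cell cycle genes in males. No member passed an adjusted p of 0.05 between mKO and mWT, where 0.211% of all 12330 genes tested did, and in no member did the groups fail to overlap (1.09% of all genes). DESeq2 gave an adjusted p for 4 of the 32 members, and 0 of these passed. At the unadjusted p of 0.01 that the study used as cut-off, 2 of the 32 members passed, Ccnd1 and Brca1, against 3.52% of all genes. At p under 0.05 there were 9 members, Ccnd1, Brca1, Ccne1, Ccne2, Mcm6, Mcm7, Brca2, Cenpa and Kif20a, against 10.6% of all genes. The fitted level was lower in mKO in 27 of the 32 members and in 50.5% of all genes, with a median log2 fold change of −0.38 over the members and −0.002 over all genes. Without any filter, 36 of the 41 members had a lower fitted level. The share over all 18682 genes of that fit is not given here. The members added by that fit had few counts, so this count has no comparison. The members vary together between mice, as described further on, and thus are not so many separate observations.

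Among the G1 regulators, Ccnd1, the D-type cyclin that couples growth signals to the cycle, reached 16.9 to 47.7 CPM (median 22.8) in mWT and 11.9 to 18.8 CPM (median 15.9) in mKO mice. In 4 of the 6 mKO mice it lay below the lowest mWT mouse, and mWT mouse 4 stood above all other males. The log2 fold change was −0.74 (SE 0.256, 95% interval −1.27 to −0.21, edgeR adjusted p = 0.274). Without mWT mouse 4 it was −0.48 and did not pass, and the cut-off was also missed without mWT mice 1 or 3 or mKO mice 2, 3, 4 or 5, with values of −0.67 to −0.77. It was missed as well in a fit without a filter (−0.73) and in a fit of the 2 male groups alone (−0.74). The overlapping LTO1 was at 9.58 CPM on average in mWT and 8.99 CPM in mKO mice (log2 fold change −0.09, edgeR adjusted p = 0.872).

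The E-type cyclins, partners of CDK2 at the entry into S phase, had lower fitted levels in mKO as well. Ccne1 lay between 1.44 and 3.88 CPM (median 2.98) in mWT and between 0.159 and 2.53 CPM (median 1.37) in mKO mice, with a log2 fold change of −1.13 (SE 0.469, edgeR adjusted p = 0.373). Ccne2 was at 1.96 ± 0.597 CPM (SD, n = 6) in mWT and 1.26 ± 0.444 CPM in mKO mice, with a log2 fold change of −0.63 with an SE of 0.262. For both genes the groups overlapped. Cdk2 itself was at 13.7 ± 1.65 CPM in mWT and 13.5 ± 1.03 CPM in mKO mice, and the 95% interval of its log2 fold change, −0.23 to 0.18, was narrow. E2f1 and the repressor E2f8 had log2 fold changes of −0.14 (SE 0.164) and 0.01 (SE 0.325).

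Cdkn1a, which blocks CDKs after stress signals, had the widest fold range within a group of all tested members, apart from Prc1, which was at 0 in 1 fWT mouse and has no such ratio there. In mWT mice it ran from 0.685 to 19.6 CPM (median 3.96), a 28.6-fold range, and in mKO mice from 6.90 to 23.7 CPM (median 9.43). The log2 fold change of 0.84 (SE 0.594, edgeR adjusted p = 0.674) did not pass, and its 95% interval reached from −0.40 to 2.08. Of the mWT mice, 2, 3, 4 and 6 lay below all mKO mice, and 1 and 5 lay within the mKO range.

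**Figure D2:**
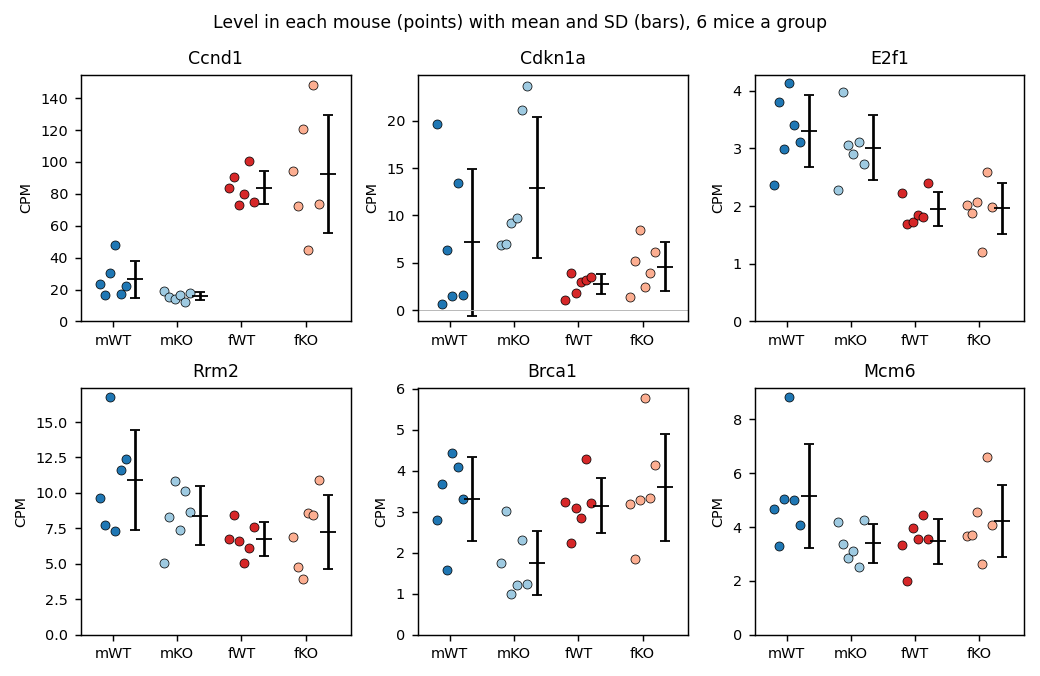
Level of 6 members in each of the 24 mice in CPM, one point per mouse, with the mean and SD of the 6 mice beside each group. Ccnd1 is separated between the sexes within each genotype (11.9 to 47.7 CPM in males, 44.9 to 148 CPM in females, with mWT mouse 4 at 47.7 CPM and fKO mouse 4 at 44.9 CPM), Cdkn1a is widely scattered within groups, and the mean of Brca1 is lowest in mKO mice.

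The fitted values of the licensing and helicase genes differed in direction. The MCM proteins form the hexameric helicase that unwinds DNA at the replication fork, so its subunits are needed in equal number. Mcm6 was at 5.16 ± 1.92 CPM in mWT and 3.39 ± 0.717 CPM in mKO mice (log2 fold change −0.61, SE 0.223, edgeR adjusted p = 0.297), and Mcm5 at 2.08 ± 1.14 and 1.36 ± 0.513 CPM (−0.63, SE 0.312). In both genes mWT mouse 4 held the highest value of all mice, 8.83 CPM for Mcm6 and 4.34 CPM for Mcm5. Mcm7, in contrast, had a higher fitted level in mKO, with 8.84 ± 0.798 CPM in mWT and 10.5 ± 1.18 CPM in mKO mice (log2 fold change 0.25, SE 0.105, edgeR adjusted p = 0.378). Mcm2, Mcm3, Mcm4 and the licensing factor Cdt1 had log2 fold changes between −0.13 and −0.01.

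Among the genes of DNA synthesis and repair, Brca1, which acts in repair of double strand breaks by homologous recombination, had the smallest p of all members. It was measured at 1.58 to 4.44 CPM (median 3.49) in mWT and at 1.0 to 3.02 CPM (median 1.5) in mKO mice. The ranges overlapped, with mWT mouse 3 at 1.58 CPM and mKO mice 1, 2 and 5 at 1.75, 3.02 and 2.32 CPM. The log2 fold change was −0.91 (SE 0.275, 95% interval −1.48 to −0.34, edgeR adjusted p = 0.189), and without mWT mouse 4 it was −0.80 and missed the cut-off. Brca2, which loads the recombinase at breaks, was at 5.45 ± 1.45 and 3.90 ± 0.730 CPM (−0.48, SE 0.214, edgeR adjusted p = 0.421). Pcna, Tyms and Rrm1 were nearly level between the groups, with log2 fold changes of 0.04 (SE 0.0794), 0.00 (SE 0.122) and −0.02 (SE 0.116), and Rrm2 had a value of −0.38 (SE 0.226).

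All 12 tested genes of G2 and mitosis had a lower fitted level in mKO, and none passed the p of 0.01. Their log2 fold changes ran from −0.82 for the mitotic cyclin Ccnb2 to −0.16 for the spindle kinase Aurka, with a median of −0.48. Mki67 was measured at 1.68 to 5.22 CPM (median 3.50) in mWT and at 0.741 to 3.51 CPM (median 1.79) in mKO mice, with a log2 fold change of −0.76 (SE 0.448, edgeR adjusted p = 0.582). Top2a, which untangles DNA before chromosomes part, was at 1.91 ± 0.661 and 1.31 ± 0.60 CPM (−0.54, SE 0.418). Kif20a, a kinesin of cytokinesis, was at 1.70 ± 0.874 and 1.07 ± 0.320 CPM (−0.65, SE 0.307, edgeR adjusted p = 0.45), and its overlapping neighbour Cdc23 was at 12.5 and 12.6 CPM. The cyclin Ccna2 (−0.35, SE 0.34), Cdk1 (−0.46, SE 0.303), the checkpoint kinase Bub1b (−0.57, SE 0.302), Birc5 (−0.49, SE 0.345) and the spindle proteins Kif11 (−0.23, SE 0.218) and Prc1 (−0.48, SE 0.545) did not pass p under 0.05. Cenpa was the least variable gene in mKO mice, between 3.60 and 3.92 CPM, against 3.12 to 6.27 CPM in mWT mice (−0.39, SE 0.162, edgeR adjusted p = 0.376).

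**Figure D3:**
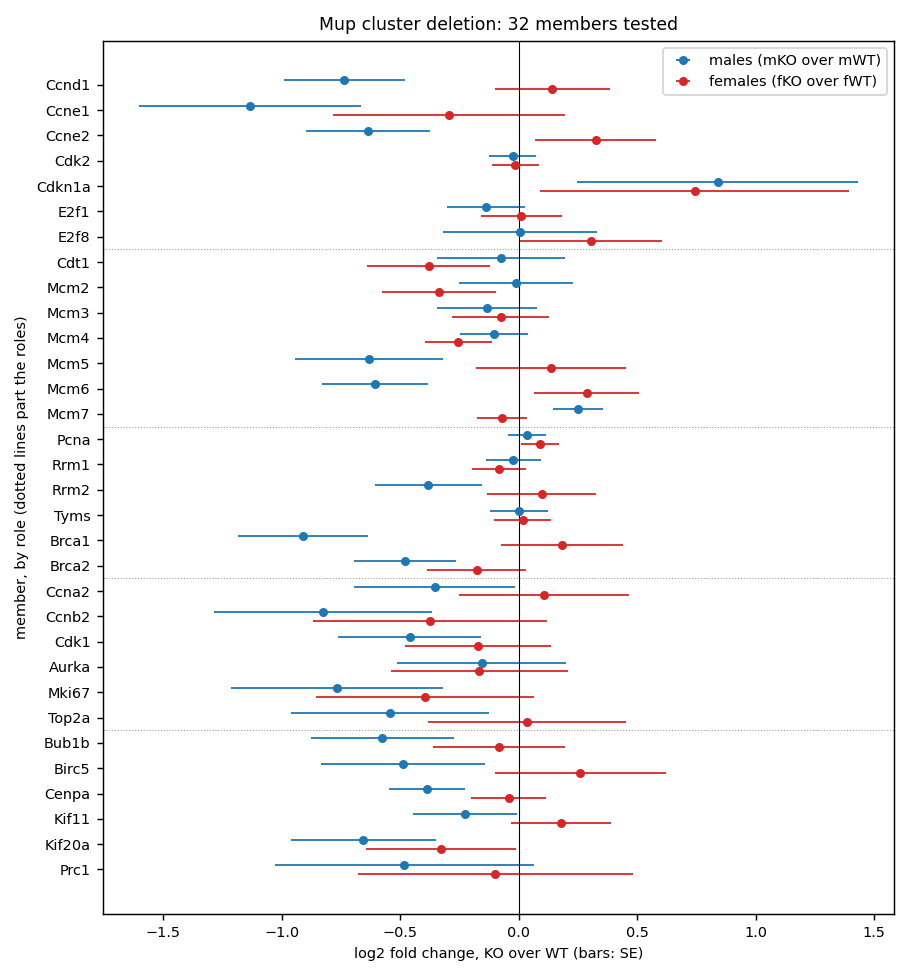
Log2 fold change of KO over WT for each of the 32 tested members, in males (mKO over mWT) and in females (fKO over fWT), with bars of 1 SE and dotted lines between the roles. In males 27 of 32 points lie left of 0 and in females 17 of 32, and no member passed an adjusted p of 0.05 in either sex.

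In females, no member passed any threshold between fKO and fWT. With edgeR, 0 of 32 passed an adjusted p of 0.05 (0.0892% of all genes did), 0 passed an unadjusted p of 0.01 (0.876%) and 0 passed p under 0.05 (4.87%), and DESeq2 gave 0 at each of these. The fitted level was lower in fKO in 17 of the 32 members and in 50.9% of all genes, with a median log2 fold change of −0.03 over the members. Ccnd1 was at 72.8 to 100.3 CPM (median 81.9) in fWT and 44.9 to 148 CPM (median 84.0) in fKO mice, so that the fKO mice enclosed the fWT range on both sides (log2 fold change 0.14, SE 0.243, 95% interval −0.36 to 0.65). Brca1 was at 3.15 ± 0.664 and 3.60 ± 1.30 CPM (0.18, SE 0.256) and Mcm6 at 3.47 ± 0.826 and 4.21 ± 1.34 CPM (0.29, SE 0.221). Cdkn1a ran from 1.09 to 3.88 CPM (median 3.12) in fWT and from 1.38 to 8.51 CPM (median 4.56) in fKO mice, a log2 fold change of 0.74 (SE 0.651). Intervals were wide for the weakly expressed genes, and for Mki67 the 95% interval reached from −1.35 to 0.56.

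The difference between the KO effects of males and females was tested as an interaction, which shares its mice with both comparisons above. No member passed an adjusted p of 0.05 with edgeR or DESeq2, and 0.00811% of all genes did. At an unadjusted p of 0.01, 2 members passed, Mcm6 and Brca1, against 1.16% of all genes, and at p under 0.05 also Ccnd1, Ccne2 and Mcm7, 5 members against 5.96% of all genes. The fitted difference was below 0 in 25 of the 32 members and in 50.0% of all genes. For Brca1 the KO effect in males was lower than in females by a log2 difference of −1.09 (SE 0.376, edgeR adjusted p = 0.816), and for Mcm6 by −0.89 (SE 0.314, edgeR adjusted p = 0.816). For Ccnd1 the value was −0.88 (SE 0.352, edgeR adjusted p = 0.823). No member passed 0.01 without mWT mouse 4 or 5, mKO mouse 4, fWT mouse 2, 4 or 6, or fKO mouse 6, and a single member, Mcm6, Brca1 or Ccne2, passed without mWT mouse 2 or 6, mKO mouse 1, 3, 5 or 6, fWT mouse 1 or 3, or fKO mouse 5. For the KO effect in males, 0 members passed 0.01 without mWT mouse 4, and Brca1 alone passed without mKO mouse 2, 4 or 5.

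The next comparison asked how the genes differ between the sexes, in WT mice and in mice without the Mup cluster. In WT mice, 3 of 32 members passed an adjusted p of 0.05, against 17.3% of all genes. Ccnd1 was lower in males (8.81% of all genes were), and E2f1 and Rrm2 were higher in males (8.51% of all genes were). In KO mice, 3 of 32 members passed, against 14.4% of all genes. Ccnd1 and Brca1 were lower in males (7.13% of all genes) and E2f1 was higher (7.26% of all genes).

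Ccnd1 showed the widest separation of the members between the sexes. The 6 mWT mice (16.9 to 47.7 CPM) lay below the 6 fWT mice (72.8 to 100.3 CPM), a 3.17-fold higher level in females (log2 fold change of males over females −1.66, SE 0.253, edgeR adjusted p = 6.1e-05). Without the Mup cluster the level in females was 5.82-fold higher (log2 fold change −2.54, SE 0.262, edgeR adjusted p = 3.73e-07), and the highest mKO mouse, at 18.8 CPM, lay below the lowest fKO mouse, at 44.9 CPM. Ccnd1 was the only member without overlap between the sexes, in WT (7.7% of all genes) and in KO mice (7.26% of all genes). LTO1, which shares exon sequence with Ccnd1, was at 9.58 CPM in mWT and 10.8 CPM in fWT mice (log2 fold change −0.18, edgeR adjusted p = 0.304).

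E2f1, the transcription factor that drives replication genes, was higher in males. It was at 2.37 to 4.14 CPM (median 3.27) in mWT and 1.69 to 2.40 CPM (median 1.83) in fWT mice, which gave a log2 fold change of 0.76 (SE 0.168, edgeR adjusted p = 0.00217). In KO mice it was at 2.29 to 3.98 CPM (median 2.98) in males and 1.21 to 2.58 CPM (median 2.0) in females, a log2 fold change of 0.61 (SE 0.168, edgeR adjusted p = 0.0134). In each genotype a single male mouse, mouse 1, lay within the female range.

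Rrm2, which supplies deoxyribonucleotides, was at 7.31 to 16.8 CPM (median 10.6) in mWT and 5.07 to 8.43 CPM (median 6.66) in fWT mice (log2 fold change 0.69, SE 0.228, edgeR adjusted p = 0.0378). The call was lost without mWT mouse 3, 5 or 6 or fWT mouse 1, 3, 4 or 5, with log2 fold changes of 0.53 to 0.69 and edgeR adjusted p of 0.0623 to 0.118, and also in a fit without a filter (0.69, edgeR adjusted p = 0.0619). In KO mice the value was 0.21 (SE 0.229). Rrm1, the constitutive subunit of the same enzyme, did not pass, at 11.0 ± 1.56 CPM in mWT and 11.5 ± 1.49 CPM in fWT mice (−0.06, SE 0.115).

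Brca1 differed between the sexes in KO mice, at 1.76 ± 0.779 CPM in males and 3.60 ± 1.30 CPM in females (log2 fold change −1.01, SE 0.271, edgeR adjusted p = 0.0115), and was nearly level in WT mice, at 3.32 ± 1.02 and 3.15 ± 0.664 CPM (0.08, SE 0.26). The test of the difference between these values is the interaction given above. Cdkn1a had higher fitted levels in males in both genotypes, 1.38 (SE 0.644, edgeR adjusted p = 0.151) in WT and 1.47 (SE 0.606, edgeR adjusted p = 0.114) in KO mice on the log2 scale, and did not pass. Among the helicase genes, Mcm5 and Mcm6 had log2 values of 0.73 (SE 0.311) and 0.58 (SE 0.221) in WT and −0.04 (SE 0.317) and −0.31 (SE 0.223) in KO mice.

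The fitted level was lower in males in 8 of the 32 members in WT mice, where 50.4% of all genes were, and in 12 of 32 in KO mice, where 50.9% were. All 12 tested genes of G2 and mitosis had a higher fitted level in mWT than in fWT mice, and none passed an adjusted p of 0.05. On the log2 scale they lay between 0.03 for the checkpoint kinase Bub1b and 0.93 for Birc5 (survivin), with a median of 0.61. Under the filter, Bub1 had a lower mean in mWT (0.193 CPM) than in fWT mice (0.259 CPM). The other mitotic members under the filter had a higher mean in mWT. In KO mice 9 of the 12 tested genes were higher in males, with a median of 0.26. These values come from the same mWT mice as the male KO comparison, so both move with the mWT group.

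**Figure D4:**
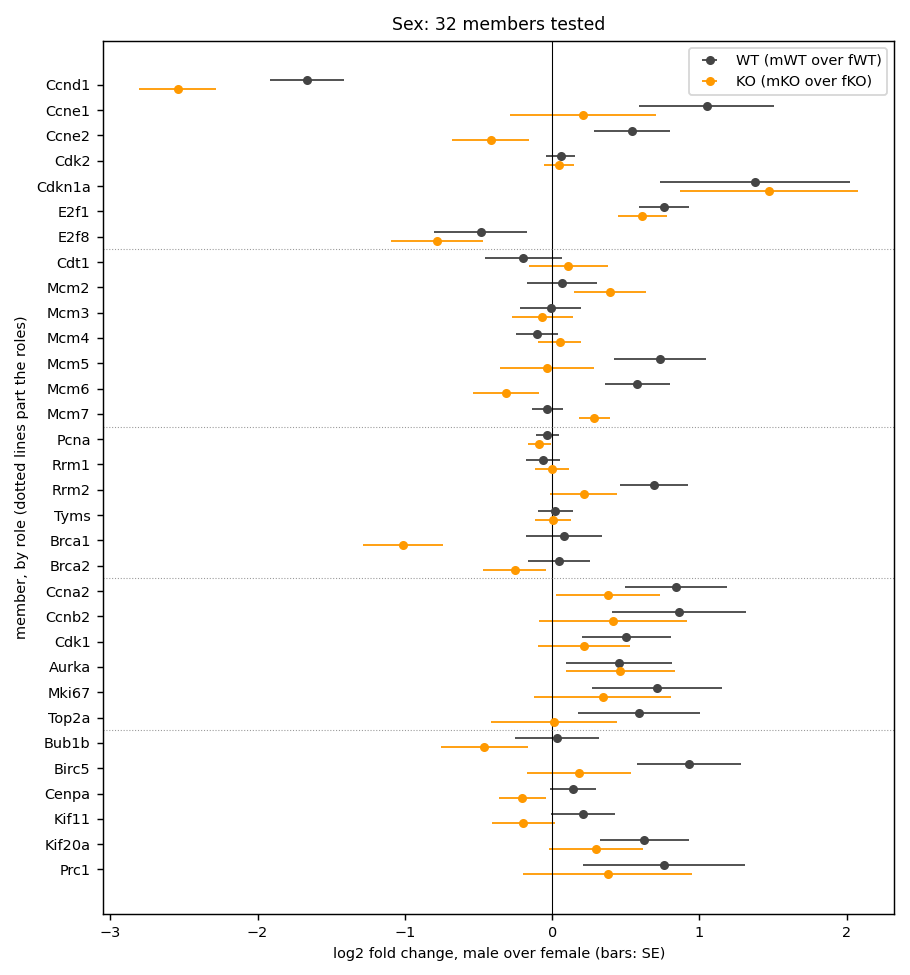
Log2 fold change of males over females for each of the 32 tested members, in WT (mWT over fWT) and in KO mice (mKO over fKO), with bars of 1 SE and dotted lines between the roles. Ccnd1 lies far to the left in both genotypes (−1.66 and −2.54), E2f1 to the right (0.76 and 0.61), and Brca1 left of 0 in KO mice at −1.01.

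Mice of the same group differed widely in the genes of mitosis. Each mouse was described by its deviation from its group mean in log2 CPM, and the median over the 12 tested genes of G2 and mitosis was 0.96 in fKO mouse 5, 0.76 in fWT mouse 6, 0.67 in mKO mouse 6, 0.54 in mWT mouse 3, 0.46 in mKO mouse 2 and 0.42 in mWT mouse 4. At the other end it was −0.70 in mKO mouse 4, −0.66 in mWT mouse 6, −0.54 in fKO mouse 6 and −0.51 in fWT mouse 5. In mKO mouse 6 all 12 genes stood above the group mean, and in mKO mouse 4 none did.

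These genes varied together. Across the 24 mice, Mki67 and Top2a deviated from their group means with a Pearson r of 0.88 and a Spearman rho of 0.87 (permutation p = 1e-05, the smallest that 100000 permutations can give, and 4e-05 after adjustment over the 4 pairs tested). Without the 2 mice farthest from the median r was 0.83. For Mcm5 and Mcm6 r was 0.74 and rho 0.67 (permutation p = 3e-05 and 0.00054, adjusted 6e-05 and 0.00108), and r was 0.52 without the 2 farthest mice. Ccnd1 and Cdkn1a had an r of −0.007 and a rho of −0.01 (permutation p = 0.973 and 0.956), and Mki67 and Cdkn1a an r of 0.21 and a rho of 0.21 (permutation p = 0.336 and 0.325, adjusted 0.448 and 0.433). Over all 66 pairs of the 12 mitotic genes the median r was 0.52 and 65 pairs were above 0. Among the 20 other members the median was 0.17, between the mitotic and the other members 0.22, and over all pairs of genes tested −0.001, where all pairs share the same 24 libraries.

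**Figure D5:**
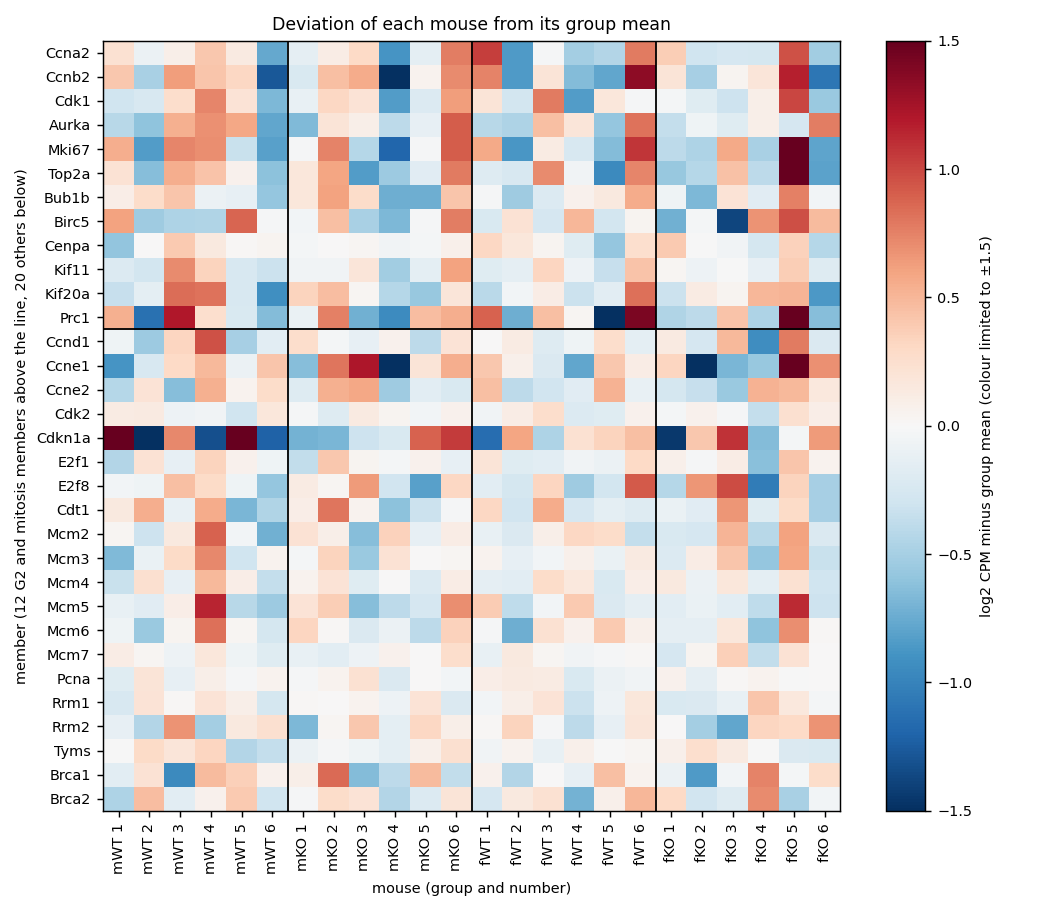
Deviation of each of the 24 mice (columns, by group and number) from its group mean in log2 CPM for the 32 tested members (rows), with red above and blue below the mean and colours limited to ±1.5. The 12 genes of G2 and mitosis above the horizontal line are red in mKO mouse 6 (12 of 12) and nearly all red in fKO mouse 5 (11 of 12), and blue in mKO mouse 4 (0 of 12 above the mean) and nearly all blue in mWT mouse 6 (1 of 12 above).

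The other genes of the same pathways were taken from 5 lists, 110 genes of which 84 were tested. Between mKO and mWT 0 of the 84 passed an adjusted p of 0.05 with edgeR (0.211% of all genes did), 2 passed p under 0.01 (3.52% of all genes) and 9 passed p under 0.05 (10.6% of all genes). The 2 were Wee1, the kinase that holds back CDK1, at 12 to 37.7 CPM (median 21.8) in mWT and 5.44 to 15.8 CPM (median 8.26) in mKO mice (log2 fold change −1.20, SE 0.349, edgeR adjusted p = 0.174), and Tk1, thymidine kinase, at 17.9 to 32.6 CPM (median 21.7) and 12.8 to 19.7 CPM (median 16.4) (−0.51, SE 0.163, edgeR adjusted p = 0.214). The median log2 fold change was −0.12 over the 84 genes. A lower fitted level in mKO was found in 50.5% of all genes. It was found in 20 of 25 other replication genes, 12 of 16 other mitosis genes and 10 of 14 other cyclins, CDKs and CDK inhibitors. Among 14 other E2F, RB and DREAM regulators 13 had a lower fitted level in mKO, between −0.38 and 0.26 in all 14 (median −0.15). Of 15 p53 targets and growth arrest genes, 12 had a higher fitted level (median log2 fold change 0.10 over the 15), and none passed p under 0.01. Between fKO and fWT 0 of 84 passed an adjusted p of 0.05 with edgeR (0.0892% of all genes did), 7 passed p under 0.05 (4.87% of all genes), and Trp53 (p53) had the smallest p in its list (−0.26, SE 0.0775, edgeR adjusted p = 0.929). For the interaction Trp53 also passed p under 0.01 (0.33, SE 0.11, edgeR adjusted p = 0.816).

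Between the sexes, 12 of the 84 genes passed an adjusted p of 0.05 in WT mice (17.3% of all genes did) and 13 in KO mice (14.4% of all genes), shares near those over all genes. Of these, 10 and 8 were higher in males (8.51% and 7.26% of all genes). Mcm10, an initiation factor of replication, was at 126 ± 49.4 CPM in mWT and 51.6 ± 15.6 CPM in fWT mice (log2 fold change 1.29, SE 0.241, edgeR adjusted p = 0.000613), with a like value of 1.26 (SE 0.241) in KO mice. Dbf4, the activator of the origin kinase Cdc7, was higher in males with 0.84 and 0.83 on the log2 scale, and the E2F partner Tfdp1 with 0.42 and 0.30. Cyclin F (Ccnf) was higher in males by 0.76 in WT and 1.08 in KO mice, and the CDK inhibitor Cdkn2c was lower by −0.47 and −0.70. The flap endonuclease Fen1 (0.64 and 0.47), E2f3 (0.31 and 0.26) and Mdm2 (0.26 and 0.29) were higher in males in both genotypes. Further genes passed in a single genotype. Among them, in WT mice Cks1b (0.99) and E2f6 (0.28) were higher and Gadd45b (−1.99) lower in males, and in KO mice the DNA polymerase subunit Pola1 (−0.88) and cyclin D2 (Ccnd2, −0.62) were lower in males. Whether these differ between genotypes was not tested here beyond the interaction, in which Trp53 alone of the 84 passed p under 0.01.

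Markers of other cells were examined beside these values, because dividing cells in the liver can be of several kinds. Over all genes, 8.81% passed an adjusted p of 0.05 as lower in males in WT and 7.13% in KO mice, and 8.51% and 7.26% as higher. Of 8 Kupffer cell and macrophage markers 6 passed as lower in mWT than in fWT mice (median log2 fold change −0.76) and 0 of 8 between mKO and fKO mice (median −0.40). In the interaction 0 of these 8 passed an unadjusted edgeR p under 0.05 (5.96% of all genes did). The summed level of the Kupffer cell and macrophage markers was 92.7 to 189 CPM in mWT, 89.4 to 244 CPM in mKO, 171 to 304 CPM in fWT and 140 to 254 CPM in fKO mice. The erythroid markers summed to 149 to 214 CPM in mWT, 155 to 260 CPM in mKO, 40.5 to 67.8 CPM in fWT and 41.2 to 60.5 CPM in fKO mice. Of the 5 tested, all passed as higher in mKO than in fKO mice and Alas2, the first enzyme of heme synthesis, alone in WT mice. Their log2 fold changes of males over females ran from 0.31 to 3.44 (median 0.44) in WT mice. In KO mice they ran from 0.91 to 3.15 (median 1.14). The difference in the erythroid sum is thus larger than that of a typical marker. Between mKO and mWT mice no marker of these 2 lists passed an adjusted p of 0.05. T and NK cell markers summed to 0.3 to 5.0 CPM and neutrophil and monocyte markers to 0.2 to 1.6 CPM over all mice, and none of their genes reached the filter. Endothelial markers summed to 168 to 263 CPM, and 2 of 6 in WT and 1 of 6 in KO mice passed as lower in males. Stellate cell and fibroblast markers summed to 171 to 333 CPM, with 1 of 6 and 2 of 6 lower in males, and cholangiocyte markers to 30.4 to 56.4 CPM, with 1 and 0 of the 3 tested. B and plasma cell markers summed to 2.1 to 9.0 CPM, and none passed. The part of these cells in the values of the 41 genes was not tested.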

How the data were processed

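Liver RNAseq libraries (TruSeq Stranded mRNA, 100 bp single-end reads, 1 library per mouse) had been aligned with STAR to GRCm38.p6 and counted with featureCounts. The authors deposited raw read counts per Ensembl gene, which were used as they are. The strand setting, annotation release and treatment of reads with several matches are not given in the sources used here. Gene symbols were taken from GENCODE and matched 25635 of 25746 genes.

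Genes with at least 0.66 CPM in 6 or more libraries (12330) were fitted with edgeR 4.0.16 (TMM scaling, robust quasi-likelihood test, 1 mean per group) in R 4.3.3, tested on simulated data. Intervals use the t distribution of the fit. The study's cut-off, unadjusted p of 0.01, was used for KO effects and the interaction, and an adjusted p of 0.05 for sex. Correlations used log2 CPM (prior count 2) as deviations from group means, with 100000 two-sided permutations. Alternatives were DESeq2 1.42.0, its size factors, other filters, removal of the Mup genes, a replicate block, only the groups compared, and leaving out each mouse. The smallest chi-square per gene between replicates was 7.73, so no pair agreed within sampling noise. Mouse numbers are the replicate numbers of the sample titles, which do not say that they join animals across groups. Members and all gene and marker lists were chosen with earlier results of these data known. All 41 members are named. From each of 5 other pathway lists, at most 3 genes per comparison are named, those with the smallest p among genes past an adjusted p of 0.05, or past an unadjusted p of 0.01 where none was. Counting floors cover counting error only. Promoter sequences are from RefSeq, and similar transcripts were searched with blastn 2.17.0.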

Additional observations from a re-analysis of the deposited data

Results flagged for a closer look

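In 10 of the 128 groups of 6 mice examined, 1 per member and group, a single mouse stood apart by Dixon's criterion. Chance alone exceeds this criterion in about 1 of 20 groups where values are independent and normally distributed. The members vary together and many have low counts, so the 10 values were not tested against that rate. Of these 10 values, 6 belonged to fKO mouse 5: Mcm5 at 2.86 CPM, Ccnb2 at 0.940 CPM, Cdk1 at 2.27 CPM, Top2a at 3.60 CPM, Kif11 at 2.04 CPM and Prc1 at 1.14 CPM. In mWT mouse 4, Mcm5 at 4.34 CPM and Mcm6 at 8.83 CPM stood apart. The remaining values were Kif20a at 1.96 CPM in fWT mouse 6 and Aurka at 0.818 CPM in fKO mouse 6.

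The KO effect differed between the sexes at an unadjusted p of 0.01 for Mcm6 (difference of the log2 fold changes −0.89) and for Brca1 (−1.09), and neither passed the edgeR adjustment over all genes.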

How the results depend on the processing

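The count of members past p 0.01 between mKO and mWT was 2. It was 1 (Brca1) with a replicate block and 1 (Brca1) with only the groups compared, 3 with DESeq2 (Mcm6 besides both) and 2 under the other settings. Without a filter these 2 were Mcm6 and Brca1 in place of Ccnd1 and Brca1. The count was 0 to 3 when each mouse was left out. For the interaction the count of 2 became 0 with the replicate block (Mcm6 −0.87 and Brca1 −1.05), 3 with DESeq2, and 0 to 3 when each mouse was left out. The block is the replicate number in the sample titles, which do not say whether it joins mice across groups. Deviations of same-numbered mice correlated between −0.335 and 0.169, which cannot decide this. Between fKO and fWT the count was 0 under every setting run. Between mWT and fWT, the 3 members past an adjusted p of 0.05 became 5 with only the groups compared (E2f1, Ccne1, Ccnd1, Birc5 and Rrm2), 4 with DESeq2 and 2 without a filter (E2f1 and Ccnd1), and 2 to 4 when each mouse was left out. Between mKO and fKO it was 3, and 3 to 4 when each mouse was left out. E2f1 and Ccnd1 in WT mice, and Ccnd1, Brca1 and E2f1 in KO mice, passed in all 12 fits that left out a mouse. The members with a lower fitted value, an added count chosen after seeing the data, numbered 21 to 29 in males and 12 to 23 in females when each mouse was left out. None of the 31 results of single members past an unadjusted p of 0.05 changed its sign under any setting run. Over all genes, 26 passed an adjusted p of 0.05 between mKO and mWT, 142 with DESeq2, 48 with only the groups compared and 2 without the Mup genes. A fit of only the groups compared was not run for the interaction, which needs all groups. Members with a median of a few counts per mouse limit what could be detected.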

Other observations

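Summed over all 41 members, the level was 139 to 204 CPM in mWT, 125 to 170 CPM in mKO, 183 to 212 CPM in fWT and 157 to 294 CPM in fKO mice. The higher sums in females rested on Ccnd1. Without it, a sum added after the values were seen, the level of the other 40 members was 117 to 157 CPM (median 139) in mWT, 108 to 152 CPM (median 128) in mKO, 103 to 137 CPM (median 117) in fWT and 109 to 147 CPM (median 114) in fKO mice, so that the medians were higher in males and the groups overlapped. The 20 members of G2 and mitosis summed to 16.2 to 36.4 CPM in mWT, 10.5 to 27.0 CPM in mKO, 12.4 to 26.7 CPM in fWT and 11.5 to 29.8 CPM in fKO mice, and the groups overlapped. No test was made on these sums.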
